A study of Mus musculus with 6 samples.

Results

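The genes described here are those of the oxidative phosphorylation subunits and of the mitochondrial genome, taken from the deposited count table by symbol: the Nduf subunit genes, Sdha to Sdhd, the Uqcr genes, Cox4 to Cox8, the Atp5 genes and every gene of the mitochondrial chromosome (symbols that start with mt-), with symbols that carry -ps, a pseudogene suffix, left out. The rule uses names alone and no measured value, and it found 123 of the 33924 gene rows, 86 of them nuclear and 37 mitochondrial. RNA was sequenced from mouse leukaemia cells in which a retrovirus had delivered MLL-AF9, a fusion of the histone methyltransferase MLL with AF9. The study's title names the cell of origin, apoptotic priming and the response to LSD1 inhibition. In 3 libraries (LSK 44, LSK 45 and LSK 46) the transformed cell was an LSK cell, a marrow cell without lineage markers that carries Sca-1 and Kit. In the other 3 (GMP 5, GMP 11 and GMP 19) it was a granulocyte-macrophage progenitor. Both groups carry the same oncogene, there is no untransformed group, and the labels name no drug treatment of any library. Cells of either origin were expanded in culture, transplanted with wild-type support marrow into lethally irradiated C57BL/6 mice, recovered from the marrow of moribund animals and kept in medium with serum, SCF, IL-3 and IL-6. RNA was extracted with TRIzol and made into libraries with the TruSeq RNA kit. Whether the 3 libraries of a group stem from independent transductions or animals is not stated in the labels. The p-values therefore reflect library-to-library spread alone, and that spread may be technical.

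Oxidative phosphorylation makes ATP in the inner mitochondrial membrane. Complex I and complex II pass electrons from NADH and succinate to ubiquinone, complex III passes them on to cytochrome c, and complex IV (cytochrome c oxidase) hands them to oxygen. Complexes I, III and IV pump protons, and ATP synthase uses the proton gradient to make ATP. Complex II is encoded in the nucleus alone, whereas the other complexes mix nuclear subunits with a few read from mitochondrial DNA, which also supplies the ribosomal RNAs (mt-Rnr1, mt-Rnr2) and transfer RNAs used to translate them. Several complex IV subunits come in a widely expressed isoform and a second one known from muscle, lung or testis. In leukaemia this system is studied because leukaemic stem cells are known to lean on it.

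Total counts per library ran from 16640929 to 33885428. Counts were scaled to CPM, the count per 1000000 counts of the library, and compared with edgeR's quasi-likelihood test, with p-values adjusted by the Benjamini-Hochberg method over 13406 tested genes. Calls required an adjusted p under 0.05. A positive log2 fold change means a higher level in the LSK-derived group, and each is given ± an approximate SE. In bulk RNA, fewer cells of a type and less RNA per cell cannot be told apart. Of 10 myeloid leukaemia identity genes, all were measured: Kit was higher in the LSK-derived libraries, and 4 (Hoxa9, Ptprc, Cebpa and Ctsg) were lower. These calls are to be read beside the 25.7% called among all genes tested. The other 5 were not called. Among them was Mpo, which had the largest difference of the list, towards LSK-derived (log2 fold change 1.87 ± 1.06, edgeR adjusted p = 0.2465).

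Some mitochondrial genes have copies in the nuclear genome, and this bears on which of them the table can measure. The transcripts of mt-Co2, a complex IV core subunit, and mt-Nd3, a complex I subunit, are shown beside their copies because their rows hold almost no counts. mt-Co2 lies at chrM:7013-7696 and its copy, the pseudogene Gm28661, at chr1:24614885-24615565 on the minus strand. mt-Nd3 lies at chrM:9459-9806 and its copy Gm28438 at chr1:24612775-24613119 on the minus strand. Positions are on GRCm38 and sequences are the first 60 bases of the GENCODE M21 transcripts. Capitals mark a base that differs.
mt-Co2: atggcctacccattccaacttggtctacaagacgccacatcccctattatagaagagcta
Gm28661: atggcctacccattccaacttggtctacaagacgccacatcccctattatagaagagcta
mt-Nd3: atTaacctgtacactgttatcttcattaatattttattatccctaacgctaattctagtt
Gm28438: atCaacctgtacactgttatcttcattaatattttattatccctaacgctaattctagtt
Over the 681 bases compared, mt-Co2 and Gm28661 had 0 differences. Over 345 bases, mt-Nd3 and Gm28438 differed once (T3C, counted from 1 at the 5′ end of mt-Nd3).

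The same held for other genes of that stretch. Of all 50-base stretches of the transcript, 100% were also found in another gene for mt-Co2, 99.9% for mt-Co3, 99.5% for mt-Atp6, 98.8% for mt-Nd4l and 98.0% for mt-Nd3. Over the 6 libraries together these rows held 9 counts for mt-Co2, 6 for mt-Co3, 4 for mt-Atp6, 1 for mt-Nd4l and 27 for mt-Nd3. By contrast, 51.1% of mt-Co1 and 62.2% of mt-Nd4 were shared, and those rows held 580928 and 79034 counts. mt-Nd1, mt-Cytb and mt-Nd6 shared 0% and held 269340, 202796 and 41847 counts. mt-Atp8 held 0 counts too, although none of its 50-base stretches was found in another annotated transcript. That search did not cover unannotated sequence. mt-Atp8 (chrM:7766-7969) lies between mt-Co2 and mt-Atp6 and overlaps the latter. On chr1 the copy of mt-Atp6 runs to 24614651 and that of mt-Co2 starts at 24614885. Whether the bases between them hold a copy of mt-Atp8 was not tested. How reads with several matching places were counted is not given in the sources used here, and the part of the copies in these low counts was not tested. The 6 low rows were not tested between the groups, and near-zero counts there are no measure of expression.

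**Figure D1:**
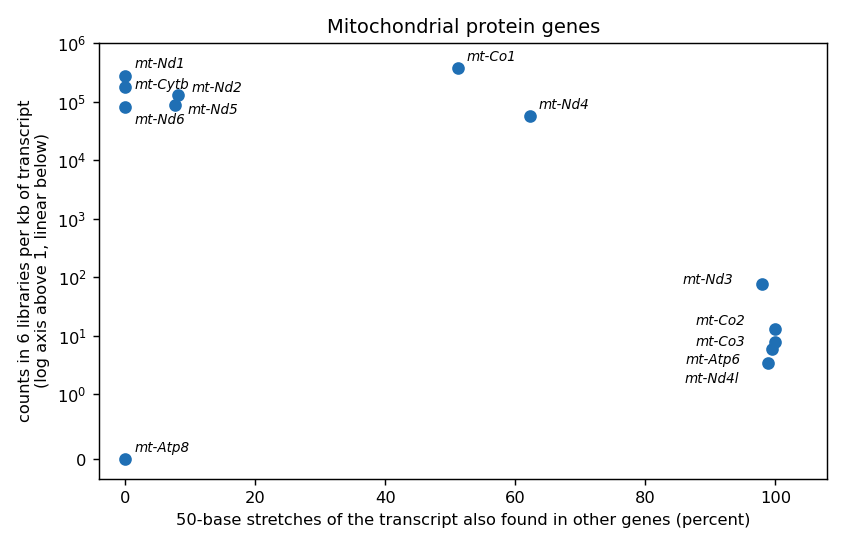
Each point is 1 of the 13 mitochondrial protein genes, placed by the percent of its 50-base stretches found in other genes (x) and by its counts over all 6 libraries per kb of transcript (y, log axis above 1 and linear below). The 5 genes at 98.0% to 100% shared lie far below the 7 genes with 41847 counts or more. mt-Atp8 lies at 0 counts with 0% shared with annotated transcripts, and unannotated sequence was not searched.

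Of the 123 genes, 93 had enough counts to be tested and 30 did not. The untested ones were 4 nuclear genes (Cox7b2, Cox8b, Cox8c and Ndufa4l2), the 6 mitochondrial protein genes above and 20 transfer RNA genes, of which none held more than 34 counts in all. Of those tested, 1 was called higher in LSK-derived leukaemia and 7 were called lower, while 85 were not called. That is 8.60% called, beside 25.7% of all genes tested. By direction, 11.8% of all genes tested were higher and 13.9% lower. The groups did not overlap in CPM for 27 of the 93 (29.0%), beside 45.4% of all genes tested. The called genes were Cox4i2, which was higher, and Cox7a1, Cox6a2, Cox7a2, Ndufa5, mt-Rnr1, mt-Rnr2 and mt-Tc, which were lower.

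**Figure D2:**
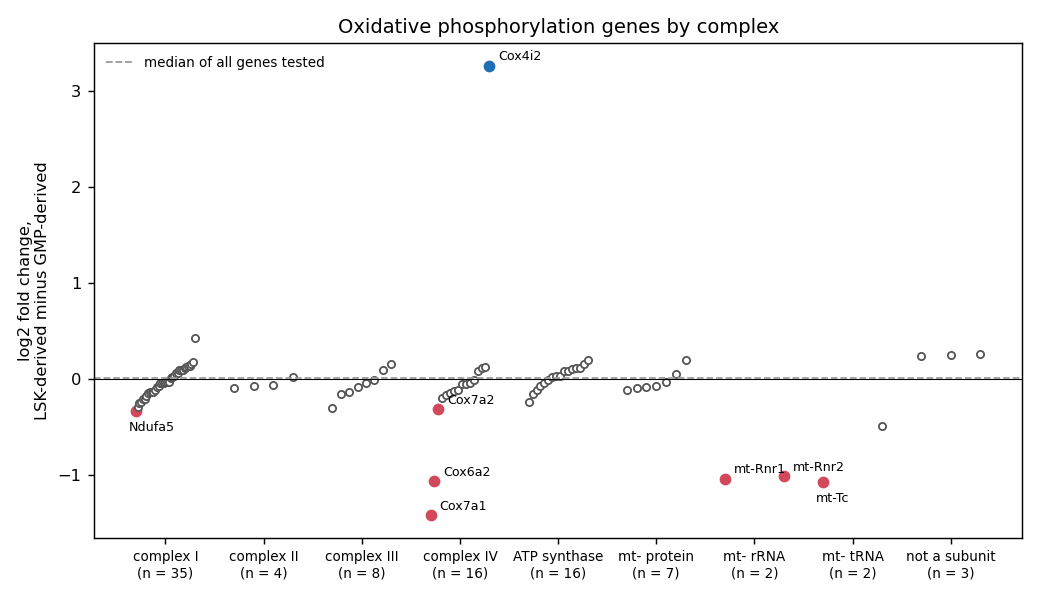
Each point is a tested gene, grouped by complex (x), with its log2 fold change, LSK-derived minus GMP-derived (y). Filled points are the 8 genes called at an adjusted p below 0.05, and the dashed line is the median of all genes tested (0.01). Outside complex IV and the mitochondrial ribosomal and transfer RNAs, Ndufa5 is the only filled point.

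The nuclear subunits as a whole were at similar levels in both groups. Nuclear members took 1.21 ± 0.0407% of counts in LSK-derived and 1.21 ± 0.0644% in GMP-derived libraries (mean ± SD, n = 3 each). By complex, only the share of complex IV did not overlap, at 0.1965 ± 0.00283% against 0.2072 ± 0.00949%. That of ATP synthase lay the other way with overlap, at 0.538 ± 0.0273% against 0.5138 ± 0.0341%. The median log2 fold change of the nuclear members was -0.03, beside 0.01 over all genes tested. The median absolute value over the nuclear subunits was 0.11, beside 0.25. For 72 of the 79 tested nuclear subunits (91.1%) the 95% interval from limma voom lay within a 1.5-fold difference in either direction, against 47.5% of all genes tested. These 79 include Atp5l2, a row that GENCODE M21 lists as a processed pseudogene, and without it the count is 72 of 78 (92.3%). The 7 whose interval reached further were Cox4i2, Cox6a2, Cox6b2, Cox7a1, Atp5l2, Ndufs8 and Uqcrq. The SD between libraries on the log2 scale had a median of 0.0737 (LSK-derived) and 0.115 (GMP-derived) in nuclear subunits, beside 0.133 and 0.160 in all genes tested, so these shares compare genes of unlike spread.

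Complex I, the largest of the complexes and the entry point for NADH, had 35 tested subunits. Their median log2 fold change was -0.03, with 0 higher and 1 lower. The lower gene was Ndufa5 (chr6:24518666-24528013, GRCm38, protein-coding), an accessory subunit. It had 39.5, 35.6 and 36.2 CPM in LSK 44, 45 and 46, and 47.3, 50.5 and 42.3 CPM in GMP 5, 11 and 19. The groups did not overlap, and the log2 fold change was -0.33 ± 0.09 (edgeR adjusted p = 0.0391). The call was lost when any 1 library other than GMP 19 was left out (adjusted p of 0.0671 to 0.133), and when transcript length and GC content were corrected (0.0840). Calls lost in left-out fits, here and below, are to be read beside those of all genes. These went from 1577 higher and 1867 lower to 857 and 973 without LSK 44, and to 770 and 980 without LSK 46. Just outside the threshold were Ndufb3 (adjusted p = 0.0513) and Ndufb5 (0.0553), with log2 fold changes of -0.24 and -0.25, named after their values were seen.

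The uncalled complex I gene with the largest difference was Ndufs8, an iron-sulphur subunit of the electron path. Its CPM was 71.6, 69.0 and 72.1 in LSK 44, 45 and 46, and 64.9, 41.6 and 51.5 in GMP 5, 11 and 19. The LSK-derived values were close together and all above the more scattered GMP-derived ones. The log2 fold change was 0.43 ± 0.15 (edgeR adjusted p = 0.0817). It was called in 3 of 17 alternative fits: by DESeq2 (adjusted p = 0.0416), by voom with sample weights (0.0169) and by edgeR without GMP 5 (0.0149). The highest adjusted p was 0.191, without LSK 46. Per kb of transcript the highest complex I gene was Ndufb8, at 152 CPM per kb in LSK-derived and 176 in the GMP-derived group (log2 fold change -0.21 ± 0.07, adjusted p = 0.0788). These levels use 1 principal transcript per gene. That length was adopted after levels were seen: with the median length of a gene's coding transcripts, used first, Ndufs1 led instead, through a median of 651 bases against 2661 for its principal transcript.

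Complex II, which also runs the succinate step of the citric acid cycle, had 4 subunits and none was called. Their median log2 fold change was -0.07. Sdhd, a membrane anchor, was the highest per kb and differed most. It had 276, 267 and 260 CPM in LSK 44, 45 and 46, against 280, 310 and 267 in GMP 5, 11 and 19. These values overlapped (log2 fold change -0.09 ± 0.08, adjusted p = 0.398). Sdha, the flavoprotein, had 405 ± 19.2 and 398 ± 19.2 CPM in the LSK-derived and GMP-derived groups.

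Complex III had 8 tested subunits, a median log2 fold change of -0.06 and no call. Uqcrh, the hinge protein next to cytochrome c1, was the highest per kb (329 CPM per kb, mean of the groups) and had 180, 190 and 169 CPM in LSK 44, 45 and 46, against 189, 185 and 169 in GMP 5, 11 and 19. The 2 sets of values covered the same range (log2 fold change -0.01 ± 0.08). With the median coding length, Uqcrc1 led in its place. Uqcrq, a small ubiquinone-binding subunit, differed most, with 94.7, 88.0 and 107 CPM in the LSK-derived and 99.5, 131 and 126 in the GMP-derived libraries. GMP 5 lay among the LSK-derived values (log2 fold change -0.30 ± 0.12, adjusted p = 0.118), and without GMP 5 the gene was called (0.0248). That was 1 of 17 alternative fits, and no other called it. The highest adjusted p was 0.285, without GMP 11.

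ATP synthase had 16 tested rows, a median log2 fold change of 0.03 and no call. Of these rows 1, Atp5l2, is a processed pseudogene in GENCODE M21, where its symbol carries the suffix that the count table leaves off, and 73.4% of its 50-base stretches occur in another gene, mostly Atp5l. It had 0.694 ± 0.0995 and 0.648 ± 0.256 CPM, and the median of the other 15 was 0.03 too. Atp5b, the catalytic beta subunit, had the highest level per kb of any nuclear gene here. Its CPM was 1986, 1710 and 1811 in LSK 44, 45 and 46, and 1745, 1877 and 1566 in GMP 5, 11 and 19. The groups overlapped (log2 fold change 0.09 ± 0.09, adjusted p = 0.524). Atp5e, the epsilon subunit of the central stalk, differed most among them, with 109, 119 and 110 CPM against 115, 142 and 140 (log2 fold change -0.23 ± 0.10, adjusted p = 0.116). It was called without GMP 5 (0.0208) and by voom with sample weights (0.0351). These were 2 of 17 alternative fits, and the highest adjusted p was 0.281, without LSK 44. The c subunit of the membrane ring is encoded by Atp5g1, Atp5g2 and Atp5g3, which give the same mature protein. Atp5g3 supplied 64.5 ± 0.438% of their counts in LSK-derived and 65.0 ± 1.09% in GMP-derived libraries, Atp5g1 26.4 ± 0.218% and 26.5 ± 0.828%, and Atp5g2 9.03 ± 0.655% and 8.53 ± 1.26%. Of the transcript of Atp5g2, 87.4% of 50-base stretches occur in another gene, and of Atp5l, 84.8%, so their levels are uncertain.

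Complex IV held 4 of the 5 nuclear calls. Of its 20 genes 16 were tested, with 1 higher, 3 lower and a median log2 fold change of -0.08. That is 25.0% called, near the 25.7% of all genes tested. In 3 of the 4 the called gene was the tissue-restricted isoform of a subunit, present at a few CPM beside a partner above 100 CPM. The widely expressed partners Cox4i1 and Cox6a1 were not called, whereas Cox7a2 was.

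Cox4i2 (chr2:152754173-152765037, GRCm38, protein-coding) is the isoform of subunit 4 known from lung and from oxygen-responsive cells. It had 1.51, 0.746 and 3.29 CPM in LSK 44, 45 and 46, from 25, 19 and 79 counts. In GMP 5, 11 and 19 it had 0.0410, 0.178 and 0.323 CPM, from 1, 6 and 11 counts. All LSK-derived values lay above all GMP-derived ones, but they were spread widely among themselves. The gene was 9.56-fold higher in LSK-derived leukaemia (log2 fold change 3.26 ± 0.74, edgeR adjusted p = 0.0213). The call was lost without LSK 44 (0.0589), LSK 46 (0.0629) or GMP 11 (0.0695), and the log2 fold change ran from 2.53 without LSK 46 to 3.93 without GMP 19. Its share of the counts of Cox4i1 and Cox4i2 together was 0.511 ± 0.365% against 0.0459 ± 0.0368%. Cox4i1 itself had 361 ± 4.92 CPM in LSK-derived and 391 ± 27.3 in the GMP-derived ones (log2 fold change -0.12 ± 0.07, adjusted p = 0.261). Of 12 erythroid and megakaryocyte markers 7 were tested, with log2 fold changes from 0.43 to 8.51. Only Hbb-b2, beta-globin, was called, and it was higher (14.3% called, beside 25.7% of all genes tested). The summed level of the markers was 27.7 to 207 CPM in LSK-derived against 3.83 to 14.7 in GMP-derived libraries. Hbb-b2 had 33.2, 14.0 and 104 CPM in LSK 44, 45 and 46 (log2 fold change 8.51). Its log2 fold change ran from 7.38 without LSK 46 to 11.33 without GMP 5. Under voom without and with sample weights its adjusted p was 0.0545 and 0.0524. Hba-a1 and Hbb-b1 stayed below 1 CPM in every library. The part of cells with these markers in the Cox4i2 result was not tested.

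Cox7a1 (chr7:30184144-30186078, GRCm38, protein-coding), the heart and skeletal muscle isoform of subunit 7a, went the other way. It had 1.33, 2.24 and 1.54 CPM in LSK 44, 45 and 46, against 3.73, 4.51 and 5.48 in GMP 5, 11 and 19. The groups did not overlap, and the gene was 2.67-fold higher in GMP-derived leukaemia (log2 fold change -1.42 ± 0.27, edgeR adjusted p = 0.0116). Without LSK 46 the call was lost (0.0526). Its partner Cox7a2 (chr9:79755361-79759878) was lower too, by a smaller step: 173, 157 and 152 CPM against 203, 208 and 189. No LSK-derived value reached the lowest GMP-derived one (log2 fold change -0.31 ± 0.08, adjusted p = 0.0246). That call was lost without LSK 45 (0.0654), LSK 46 (0.100) or GMP 11 (0.0758), and with the length and GC correction (0.0694). Cox7a1 made up 1.06 ± 0.323% of the counts of both genes in LSK-derived and 2.25 ± 0.518% in GMP-derived libraries. Cox7a2l, a related gene that acts in supercomplex assembly, had 111 ± 14.2 and 121 ± 6.68 CPM (adjusted p = 0.401).

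Cox6a2 (chr7:128205435-128206387, GRCm38, protein-coding), the heart and muscle isoform of subunit 6a, had 1.33, 1.61 and 1.62 CPM in LSK 44, 45 and 46, and 2.25, 4.07 and 3.25 in GMP 5, 11 and 19. The LSK-derived values sat close together below all GMP-derived ones (log2 fold change -1.07 ± 0.28, edgeR adjusted p = 0.0310). The call was lost when any 1 library other than GMP 5 was left out (0.0648 to 0.105). Exons of Cox6a2 overlap those of Itgad, an integrin gene on the opposite strand, and 3.33% of its 50-base stretches are also found there. With the strand setting unknown, reads in that overlap cannot be assigned to either gene. Its partner Cox6a1 had 123 ± 6.18 and 124 ± 12.6 CPM (adjusted p = 0.956). Cox6a2 was 1.23 ± 0.173% of the pair in LSK-derived and 2.48 ± 0.459% in GMP-derived libraries.

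The other isoform pairs gave no call. Cox6b2, known from testis, had 0.592 ± 0.395 CPM in LSK-derived and 0.698 ± 0.147 in GMP-derived libraries (adjusted p = 0.788), beside 214 ± 4.37 and 221 ± 13.1 for Cox6b1. Cox8b held 9 counts, Ndufa4l2 held 4, and Cox8c and Cox7b2 held 0 over all 6 libraries, and a count of 0 allows up to 0.181 CPM in the smallest of them. The partner Cox8a had 165 ± 6.55 and 152 ± 23.4 CPM, and Ndufa4, now placed in complex IV, had 231 ± 13.9 and 212 ± 15.5. Neither was called (adjusted p of 0.486 and 0.284).

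**Figure D3:**
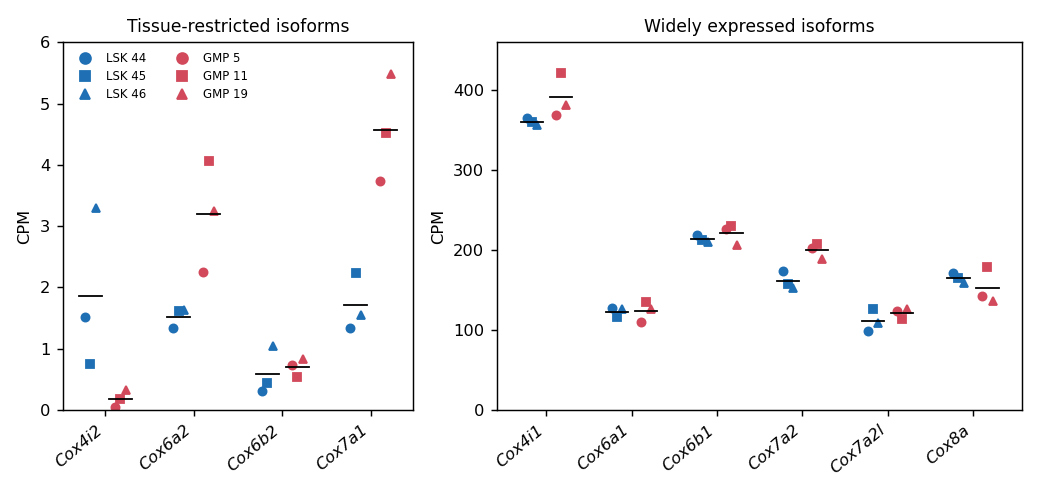
CPM of complex IV isoform genes in each library, on linear axes from 0, with the tissue-restricted isoforms on the left (0 to 6 CPM) and the widely expressed ones on the right (a far larger scale). Blue symbols are LSK-derived and red ones GMP-derived libraries, and bars are means of 3. Cox4i2 is higher in blue, Cox6a2, Cox7a1 and Cox7a2 are higher in red. Cox4i1 is slightly higher in red without a call, and the other genes overlap.

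The promoters of the 3 lower genes with a RefSeq entry are shown because these genes moved in the same direction. Sequences are 250 bases before to 50 after the start, on GRCm38.p6, with capitals at matches to the letters searched on both strands: GCGCA, any base and GCGC for NRF1, CCGGAAG for ETS factors such as GABPA, AAGATGGC for YY1, TCAAGGTCA for ERR alpha and GGGCGG for SP1. They lie at chr7:30183921-30184220 (plus strand) for Cox7a1, chr9:79759804-79760103 (minus strand) for Cox7a2 and chr6:24527477-24527776 (minus strand) for 1 of the 2 starts of Ndufa5.
Cox7a1: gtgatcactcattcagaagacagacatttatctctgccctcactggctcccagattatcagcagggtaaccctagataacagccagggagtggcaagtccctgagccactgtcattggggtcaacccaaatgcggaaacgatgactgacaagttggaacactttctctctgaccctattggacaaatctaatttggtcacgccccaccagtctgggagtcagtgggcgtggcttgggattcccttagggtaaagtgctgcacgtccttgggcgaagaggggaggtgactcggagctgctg
Cox7a2: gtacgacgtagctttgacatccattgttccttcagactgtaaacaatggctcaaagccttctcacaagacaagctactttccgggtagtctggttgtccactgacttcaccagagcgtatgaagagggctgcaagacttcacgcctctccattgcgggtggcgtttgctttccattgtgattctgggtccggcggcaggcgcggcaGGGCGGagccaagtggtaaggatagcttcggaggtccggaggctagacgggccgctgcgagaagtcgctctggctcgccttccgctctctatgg
Ndufa5: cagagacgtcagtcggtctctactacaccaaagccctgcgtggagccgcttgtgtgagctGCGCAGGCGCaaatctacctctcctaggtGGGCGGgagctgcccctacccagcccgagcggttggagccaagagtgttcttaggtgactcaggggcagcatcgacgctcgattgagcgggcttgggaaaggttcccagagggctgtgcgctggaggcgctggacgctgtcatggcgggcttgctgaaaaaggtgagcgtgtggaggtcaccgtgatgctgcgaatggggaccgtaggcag
Cox7a1 held none of these letters, Cox7a2 held the SP1 letters and Ndufa5 held the NRF1 and SP1 letters, so no match was common to all 3. Among the 67 nuclear subunits with a promoter entry, 25.4% held the NRF1 letters, against 11.8% of the 9781 tested genes with an entry and 4.6% of all 32851 promoters. The YY1 letters were in 14.9%, 5.41% and 2.75% in the same order, the ETS letters in 23.9%, 20.7% and 8.86%, and the ERR alpha letters in 2.99%, 0.307% and 0.423%. The SP1 letters were in 40.3%, 68.2% and 35.7%. In the shares of subunits and of tested genes, a gene counts once if any of its promoters holds the letters. The share of all promoters counts each promoter, so it is in another unit. The number of promoters per gene was not matched. A match is a description of the sequence and not a binding site.

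The 7 tested mitochondrial protein genes gave no call, with a median log2 fold change of -0.07. Of their 50-base stretches, mt-Co1 shares 51.1% and mt-Nd4 62.2% with other genes, so the levels of these genes are uncertain. mt-Co1, the catalytic subunit of complex IV, had 3483, 3700 and 3560 CPM in LSK 44, 45 and 46, against 4156, 3462 and 3681 in GMP 5, 11 and 19. The groups overlapped (log2 fold change -0.07 ± 0.08, edgeR adjusted p = 0.541). mt-Cytb, the cytochrome b of complex III, was the gene with the largest difference: 1360, 1475 and 1344 CPM against 1347, 1149 and 1140. Here GMP 5 lay among the LSK-derived values (log2 fold change 0.20 ± 0.09, adjusted p = 0.130), and without GMP 5 the gene was called (0.0350). That was 1 of 17 alternative fits, and no other called it. The highest adjusted p was 0.298, without GMP 11. The complex I subunits had fold changes between -0.11 (mt-Nd1, 1636 ± 8.12 against 1770 ± 183 CPM) and 0.06 (mt-Nd4, 514 ± 26.9 against 494 ± 61.1 CPM), with mt-Nd2 at -0.09, mt-Nd6 at -0.08 and mt-Nd5 at -0.04. mt-Nd5 (chrM:11742-13565) and mt-Nd6 (chrM:13552-14070) overlap on opposite strands at their ends only. With the strand setting unknown, reads in that short overlap cannot be assigned to either gene.

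The rows of the mitochondrial ribosomal RNAs were lower in the LSK-derived libraries. The part of RNA selection during library making in these rows was not tested. mt-Rnr1, the 12S RNA of the small ribosomal subunit (chrM:70-1024), had 175, 186 and 208 CPM in LSK 44, 45 and 46, against 483, 403 and 283 in GMP 5, 11 and 19. mt-Rnr2, the 16S RNA of the large subunit (chrM:1094-2675), had 334, 330 and 323 CPM against 816, 713 and 462. In both genes the LSK-derived values were tightly grouped, and GMP 19 lay closest to them. mt-Rnr1 was 2.05-fold and mt-Rnr2 2.02-fold higher in the GMP-derived libraries (log2 fold changes of -1.04 ± 0.19 and -1.01 ± 0.20, edgeR adjusted p of 0.0118 and 0.0136). Without LSK 44 both calls were lost (0.0534 and 0.0552), and without LSK 46 that of mt-Rnr2 was lost (0.0547). Set against the protein genes of the same chromosome, the libraries held 5.66, 5.40 and 5.85 ribosomal RNA counts per 100 protein gene counts in LSK 44, 45 and 46, and 12.4, 12.6 and 8.38 in GMP 5, 11 and 19.

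Of the 22 transfer RNA genes only mt-Tp and mt-Tc had enough counts to be tested. mt-Tc (chrM:5192-5257, minus strand) was lower, with 0.544, 0.549 and 0.708 CPM from 9, 14 and 17 counts, against 1.31, 1.28 and 1.23 CPM from 32, 43 and 42 counts (log2 fold change -1.07 ± 0.24, adjusted p = 0.0203). Its call was lost in DESeq2 (0.0773) and in all left-out fits but that without GMP 5 (0.0530 to 0.0790). mt-Tp was not called: 25.2, 23.0 and 24.2 CPM against 42.0, 31.0 and 28.9 (log2 fold change -0.49 ± 0.15, adjusted p = 0.0503), and it is named after its values were seen.

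The 4 RNAs below, which do not code for protein, lay the same way. They were picked once their values were known. The 5.8S ribosomal RNA row (n-R5-8s1) had 0.484, 0.746 and 0.208 CPM in LSK 44, 45 and 46 against 1.68, 3.27 and 0.880 in GMP 5, 11 and 19 (adjusted p = 0.0544). Malat1, a nuclear long RNA, had 137, 170 and 155 CPM against 292, 252 and 172 (0.0582), and Neat1, the paraspeckle RNA, had 151, 273 and 254 against 336, 328 and 403 (0.0772). The 5S row had 1.27, 1.26 and 1.499 CPM against 1.89, 1.57 and 1.53 (0.360). None of the 4 was called. None overlapped between the groups, which also held for 45.4% of all genes tested. Because they were picked by their values, their shared direction is no separate result. Their part in the lower mt-Rnr1 and mt-Rnr2 was not tested. Gm10925, the nuclear copy of mt-Atp6, and Gm10221, which shares stretches with Atp5l, were looked at too. Both lay the other way, with overlap and without a call (log2 fold changes of 0.34 and 0.04, edgeR adjusted p of 0.651 and 0.914).

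**Figure D4:**
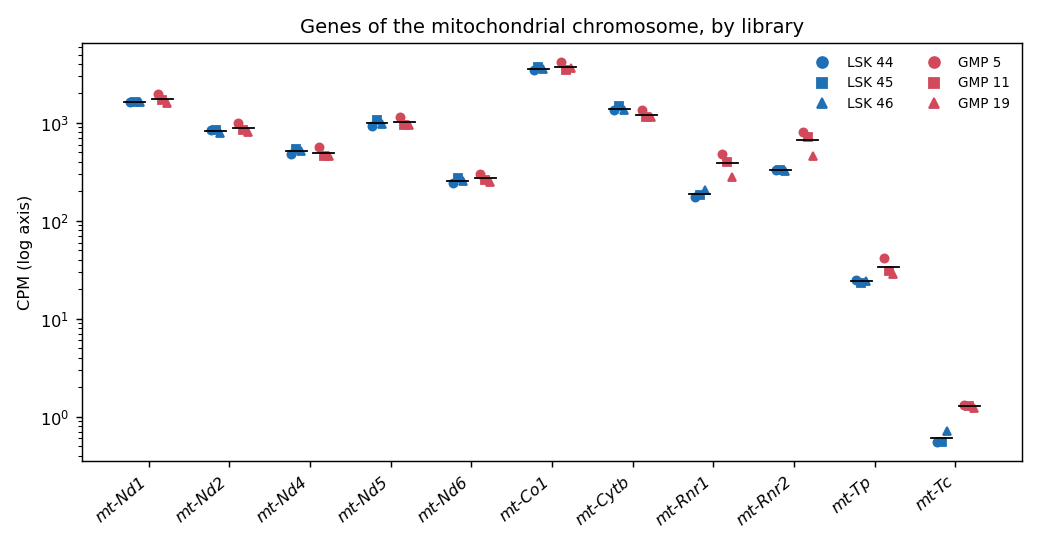
CPM (log axis) of the 11 tested genes of the mitochondrial chromosome in each library. Blue symbols are LSK-derived and red ones GMP-derived libraries, and bars are means of 3. The protein genes from mt-Nd1 to mt-Cytb overlap between the groups, while mt-Rnr1, mt-Rnr2, mt-Tp and mt-Tc are higher in every red library, with GMP 19 the lowest of the red ones.

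Nuclear and mitochondrial protein genes kept about the same balance in both groups. Mitochondrial members took 0.973 ± 0.0281% of counts in LSK-derived and 1.05 ± 0.115% in GMP-derived libraries. Mitochondrial protein gene counts divided by nuclear member counts gave 0.715, 0.812 and 0.752 in LSK 44, 45 and 46, and 0.890, 0.689 and 0.772 in GMP 5, 11 and 19. These values overlapped, with means of 0.759 ± 0.0489 and 0.784 ± 0.101, and the spread was set by GMP 5 and GMP 11, the highest and the lowest. The 5 untestable protein genes with annotated nuclear copies and mt-Atp8 add almost nothing to these sums, so the ratio leaves out much of the chromosome's protein output. The parts of mt-Co1 and mt-Nd4 in it are uncertain because of their shared sequence. Within the groups, single libraries stood out: GMP 11 was highest for the 5 nuclear complexes (median deviation from the gene's mean of 0.08 for ATP synthase to 0.15 for complex III on the log2 scale), and GMP 5 for the mitochondrial protein genes (0.19).

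**Figure D5:**
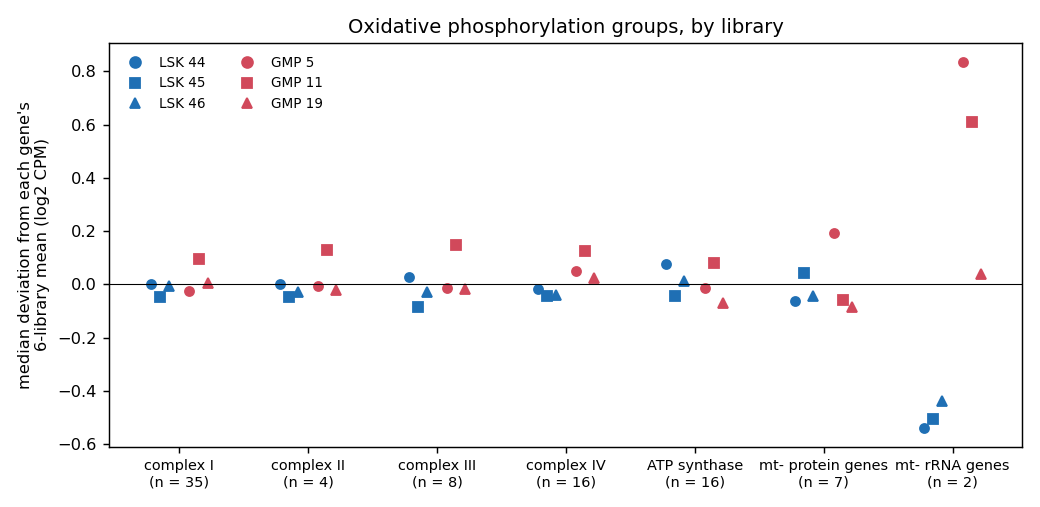
For each group of genes (x), the median over its tested genes of a library's deviation from the gene's mean over the 6 libraries (y, log2 CPM). Blue symbols are LSK-derived and red ones GMP-derived libraries. The nuclear complexes stay between -0.08 and 0.15, whereas the 2 ribosomal RNA genes run from -0.54 in LSK 44 to 0.84 in GMP 5.

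Of the nuclear protein-coding genes the symbol pattern picks up, 3 encode no subunit. Cox4nb, the neighbour of Cox4i1 and a member of the endoplasmic reticulum membrane complex, had 46.5, 46.9 and 49.9 CPM in LSK 44, 45 and 46, against 38.9, 43.4 and 38.3 in GMP 5, 11 and 19 (log2 fold change 0.25 ± 0.08, adjusted p = 0.0614). Its exons overlap those of Cox4i1 on the opposite strand. It was called in 2 of 17 alternative fits, under upper-quartile scaling (0.0445) and under the length and GC correction with the median coding length (0.0470). The highest adjusted p was 0.193, without LSK 46. Atp5sl (log2 fold change 0.26 ± 0.10) and Atp5s (0.24 ± 0.12) did not overlap between the groups either, and neither was called (0.104 and 0.184).

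Genes that act around the complexes are given by list, each to be read beside the 25.7% called among all genes tested. Of 13 tested subunits and electron carriers outside the symbol rule, Etfb, part of the electron transfer flavoprotein, was higher (218 ± 18.8 against 172 ± 11.6 CPM, adjusted p = 0.0303) and none was lower. Cytochrome c (Cycs) had 142 ± 17.8 and 137 ± 18.2 CPM, and Cyc1 had 165 ± 21.2 and 154 ± 21.8. Among 10 complex I assembly factors, Ndufaf3 (log2 fold change -0.47) and Tmem126b (-0.30) were lower. Among 12 complex IV assembly factors, Ccdc56, also called Coa3, was higher (0.35) and Cox15, which makes haem a, was lower (-0.21). The 7 factors of complexes II and III and the 3 of ATP synthase gave no call. Of 78 mitochondrial ribosomal protein genes, 3 were higher (Mrpl52, Mrps10 and Mrps31) and 2 lower, Mrpl41 among them. Each of these 9 named calls was lost in at least 1 left-out fit, with the highest adjusted p at 0.157, for Cox15 without LSK 46.

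Of 23 tested genes that copy, transcribe or process mitochondrial DNA, 2 were higher and 1 lower. Ssbp1, which coats single-stranded mitochondrial DNA, had 79.1, 71.8 and 72.2 CPM in LSK 44, 45 and 46, against 59.6, 59.7 and 48.1 in GMP 5, 11 and 19 (log2 fold change 0.41 ± 0.10, adjusted p = 0.0274). Peo1, the helicase Twinkle, was higher by 0.37 ± 0.10 (0.0388), and Polg, the polymerase, was lower by 0.22 on the log2 scale (0.0469). Tfam, which packages and transcribes the chromosome, had 92.9, 88.1 and 98.3 CPM against 84.2, 79.4 and 69.0 and was not called (log2 fold change 0.26 ± 0.09, adjusted p = 0.0747). It was called in 2 of 17 alternative fits, by voom with sample weights (0.0385) and without GMP 5 (0.0442). The highest adjusted p was 0.217, without LSK 46. The calls for Ssbp1 and Peo1 were lost without LSK 44 (0.0970 and 0.107) or LSK 46 (0.0733 and 0.130). That of Peo1 was also lost without LSK 45, GMP 5 or GMP 19, and that of Polg in every left-out fit (0.0628 to 0.149).

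Of 14 tested regulators of mitochondrial biogenesis, 2 were higher and 1 lower (21.4% called, near the 25.7% of all genes tested). Nrip1, a nuclear co-repressor known to hold back oxidative genes in muscle and fat, had 29.8, 17.9 and 37.5 CPM in LSK 44, 45 and 46, against 1.03, 0.297 and 0.323 in GMP 5, 11 and 19 (log2 fold change 5.76 ± 0.54, adjusted p = 0.00152). Every LSK-derived value was far above every GMP-derived one, and without GMP 5 the log2 fold change was 6.49. Sirt3, the mitochondrial deacetylase, was higher (0.42 ± 0.10, 0.0208), and Prkaa1, a catalytic subunit of AMP kinase, was lower (-0.35 ± 0.06, 0.00948). The call for Sirt3 was lost without LSK 44 (0.0593), LSK 46 (0.0768) or GMP 19 (0.0568). Nrf1 (0.03 ± 0.07), Gabpa (-0.07 ± 0.07) and Esrra (-0.08 ± 0.16) were not called, and neither was Ppargc1b, with 9.71 ± 0.189 against 12.4 ± 5.13 CPM. Ppargc1a was too low to be tested, at 0.0605, 0.275 and 0.250 CPM against 0.0820, 1.28 and 1.70.

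Of 23 tested genes of the citric acid cycle and pyruvate entry, 3 were higher and none lower: Pdk3, a kinase that inhibits pyruvate dehydrogenase (104 ± 14.2 against 64.7 ± 5.65 CPM, adjusted p = 0.00778), Pdp1, the phosphatase that reactivates it (13.8 ± 0.385 against 9.03 ± 0.190, 0.00829), and Idh3g, a subunit of isocitrate dehydrogenase (182 ± 7.88 against 147 ± 10.1, 0.0251). The call for Idh3g was lost without LSK 44 (0.0915), LSK 46 (0.0766), GMP 11 (0.0642) or GMP 19 (0.0634). Of 10 tested inner and outer membrane carriers, 1 was higher and 2 lower (30.0% called). Ucp2, a carrier of the uncoupling protein family abundant in blood cells, had 625, 674 and 621 CPM in LSK 44, 45 and 46, against 974, 847 and 948 in GMP 5, 11 and 19 (log2 fold change -0.53 ± 0.08, adjusted p = 0.00427). The calcium-regulated ATP-Mg carriers went opposite ways, with Slc25a24 lower (20.3 ± 1.97 against 44.1 ± 2.48 CPM, 0.000886) and Slc25a23 higher (9.30 ± 0.260 against 3.51 ± 1.44, 0.0134).

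Markers of other marrow cells are given by list, with calls to be read beside the 25.7% called among all genes tested. Summed neutrophil granule markers ran from 49.3 to 180 CPM in LSK-derived and from 18.98 to 584 CPM in GMP-derived libraries. The tested marker furthest towards LSK-derived, at a log2 fold change of 2.65, was not called. Of 7 tested, 2 (Ngp and S100a9) were lower, both highest in GMP 19. Those 2 calls were lost in 5 of 6 left-out fits and under voom (adjusted p of 0.230 and 0.231), and without GMP 19 the log2 fold change went from -5.45 to -3.07 for Ngp and from -5.98 to -3.37 for S100a9. Macrophage markers ran from 92.2 to 152 against 81.8 to 176 CPM, with 3 of 6 tested (Cx3cr1, Mertk and Mrc1) higher. The tested marker furthest the other way, at a log2 fold change of -1.93, was not called. C1qa, C1qb and C1qc stayed below 1 CPM. The call was lost in 5 of 6 left-out fits for Mertk, in 6 of 6 for Mrc1 and without GMP 19 for Cx3cr1 (0.0665). Stromal markers ran from 189 to 330 against 146 to 227 CPM, with 1 of 2 tested (Pdgfrb) lower and Col1a2, Lum and Dcn at 0. The other tested marker lay the other way, at a log2 fold change of 0.65, and was not called. Of the 10 stromal markers 7 stayed below 1 CPM in every library, so the sum rests on few rows. The call for Pdgfrb was lost without LSK 44 (0.0823) or GMP 19 (0.0689). B-cell markers ran from 15.2 to 22.2 against 4.51 to 13.9 CPM, with 1 higher (Cd79b) and 1 lower (Igll1) of 3 tested and Ms4a1 and Pax5 at 0. The call for Igll1 was lost in 5 of 6 left-out fits. T and NK markers summed to at most 7.59 CPM, with Cd3e and Ncr1 at 0. The part of such cells in the calls above was not tested.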

How the data were processed

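A single table of unnormalized counts, with genes as rows and the 6 libraries as columns, was deposited by the authors. The mm9 build and the tools DESeq2, STAR 2.4 and HTSeq 0.6.1 are listed, without their roles, per the submitters' processing notes. Annotation, strand setting and treatment of reads with several matches: not given in the sources used here. Groups came from the sample titles. The main test was edgeR 4.0.16 under R 4.3.3 (filterByExpr, TMM scaling, robust glmQLFit, glmQLFTest, no covariate), with Benjamini-Hochberg adjustment over 13406 genes. CPM is the count over the library's tested total times its TMM factor, times 1000000. The SE is the absolute log2 fold change over the square root of F. Intervals came from limma 3.58.1 voom. DESeq2 1.42.0 was an alternative.

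On simulated counts for 13248 genes of this comparison, 34.3% of 99 genes changed 1.5-fold and 64.3% of 98 genes changed 2-fold were called, as were 0.0306% of unchanged genes. The changed genes were few beside 13051 unchanged ones, whereas 25.7% of genes were called in the data. Spread was simulated from the trend over all genes, and nuclear subunits varied less than that. These shares are therefore no measure of detection for the genes described here. GENCODE M21 (GRCm38, not mm9) served for transcript length, GC content, shared 50-base stretches and exon overlaps; all 123 genes and 97.5% of tested genes matched it. Promoters came from RefSeq GRCm38.p6, with 69 of the 86 nuclear genes matched. Counting floors use 3 counts and cover counting error only.

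Members and lists were chosen with earlier results of these data known. Named genes were all called members, the highest per kb and the most different uncalled gene in each complex, isoform families, mitochondrial protein and ribosomal RNA genes, non-subunits and, from related lists, up to 4 called genes each plus a set list of 9 regulators and carriers. Transcript length was first taken as the median over a gene's coding transcripts. After levels per kb had been seen, it was replaced by that of the APPRIS principal transcript, for levels and shared stretches. The planned length and GC correction keeps the first definition, and the second was run as an added alternative.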

Additional observations from a re-analysis of the deposited data

How the results depend on the processing

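Across 17 alternatives (15 planned, 2 chosen after seeing the data: scaling without mt-Rnr1 and mt-Rnr2, and length and GC offsets from the principal transcript) no named gene changed direction in a fit that called it, whereas several medians and differences near 0 changed sign. Under every alternative the median of all genes moved by less than 0.05 on the log2 scale. The number of members called higher (1) became 2 under upper-quartile scaling, the planned length and GC offsets, voom with sample weights and DESeq2, and 0 with a filter of at least 1 CPM in 3 libraries, which removes Cox4i2. All of these are nuclear. The number called lower (7) became 11 under voom with sample weights. Nuclear members called lower (4) became 7 under voom with sample weights and under DESeq2, and 2 under the added length and GC offsets. With 1 library left out, members called higher ran from 0 to 3 and lower from 1 to 9, nuclear members higher from 0 to 2 and lower from 0 to 5, and mitochondrial members higher from 0 to 1 and lower from 0 to 4. In the same fits, calls over all genes ran from 770 to 1523 higher and from 973 to 1944 lower, beside 1577 and 1867 with all 6 libraries. Lost calls are therefore not particular to these members. Complex I went from -0.03 to 0.0247 (planned offsets). Complex II went from -0.07 to -0.00597 (planned) and 0.00902 (added), and from -0.11 to 0.0027 with 1 library left out. The mitochondrial protein genes went from -0.07 to 0.0518 (planned), and all nuclear members from -0.03 to 0.0308 (added). Complex IV ran from -0.123 to -0.0296 with 1 library left out. ATP synthase went from 0.03 to -0.0242 without GMP 19, the nuclear share of counts (LSK-derived minus GMP-derived, in percent) from 0.00518 to -0.0179 without GMP 19, and the ratio of mitochondrial protein to nuclear counts from -0.0241 to 0.0289 without GMP 5. Leaving out the pseudogene row Atp5l2, also chosen after seeing the data, kept the medians of ATP synthase and of all nuclear members within 0.01. The cause was not tested. Upper-quartile scaling gave 1753 higher and 1730 lower genes in all, beside 1577 and 1867. No paired analysis was possible because the library numbers (44, 45, 46 and 5, 11, 19) are not shared between the groups. Groups of 3 libraries limit the precision, as do the few counts of Cox4i2, Cox6a2, Cox7a1 and mt-Tc.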
